A study of Mus musculus with 14 samples.

Results

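The 9 genes described here encode cell surface proteins by which blood stem and progenitor cells are held in, leave and return to the bone marrow: the chemokine receptor Cxcr4, the integrin subunits Itga4, Itga5, Itga6, Itgb1 and Itgal, the hyaluronan receptor Cd44, the "do not eat me" protein Cd47 and the selectin ligand Selplg. They were taken as a list of gene names and make up 9 of 38926 gene entries in the LSK and MyePro libraries and 9 of 39179 in the LT-HSC libraries. All 9 were found in every one of the 8 RNA libraries, by symbol in the first set and by Ensembl ID in the second. All 9 had enough counts to enter every comparison.

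The study measured mouse bone marrow cells lacking Dpy30, a subunit shared by the enzyme complexes that place methyl groups on lysine 4 of histone H3. Control cells were Mx1-Cre; Dpy30F/+ and knockout (KO) cells were Mx1-Cre; Dpy30F/-, so that Cre and a floxed allele were present in both groups. In all groups donor marrow was mixed with congenic competitor marrow, grafted into irradiated recipients, and exposed to pIpC, the interferon inducer that turns on Mx1-Cre, in 4 injections of 7.5 µg/g from week 7 after grafting, with harvest 2 weeks after the last one. Mx1-Cre is active in many interferon-responsive cells, and the labels do not give the age of the mice. Long-term hematopoietic stem cells (LT-HSC) gave 2 libraries of each genotype, 1 per genotype in transplant 1 and in transplant 2, each a pool of 7 to 9 mice whose RNA was amplified. LSK cells, which are lineage-negative, Sca-1-positive and Kit-positive and hold stem cells with multipotent progenitors, and MyePro cells, whose gate the labels do not give, had 1 unamplified library per genotype, each from 2 to 3 mice.

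Blood stem cells sit beside stromal cells that secrete CXCL12, and its receptor CXCR4 draws them there and keeps them there. Integrins are pairs of an alpha and a beta chain: the beta 1 chain joins alpha 4 to bind VCAM-1 and fibronectin, alpha 5 to bind fibronectin and alpha 6 to bind laminin, while alpha L joins beta 2 to bind ICAM-1. CD44 binds hyaluronan and osteopontin, PSGL-1 (the product of Selplg) carries the sugars that selectins bind when cells roll on marrow vessels, and CD47 engages SIRP-alpha on macrophages and restrains engulfment.

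Dpy30 itself stood at 78.0 CPM in control LSK, 42.3 in KO LSK, 114 in control MyePro and 51.8 in KO MyePro. CPM here are counts over gene entries scaled to a library size of 1e+06 and by the trimmed mean of M-values (TMM) within the 4 LSK and MyePro libraries or within the 4 LT-HSC libraries. In LT-HSC it stood at 12.9 and 8.43 CPM in control and at 14.1 and 4.67 CPM in the libraries labelled KO of transplants 1 and 2, so the transplant 1 KO library did not have a lower level. Gene counts ran from 6130320 (KO LSK) to 20820762 (control MyePro) in the first set and from 38060087 to 85499797 in the second. Xist, the RNA of the inactive X chromosome, stood at 239 and 149.6 CPM in control LT-HSC and at 2165 and 1504 CPM in KO LT-HSC, while Y-linked Kdm5d had 29.8 and 19.2 CPM in control and no counts in KO, so that donor sex and genotype cannot be told apart in that comparison. In LSK and MyePro all 4 libraries had Kdm5d (19.8 to 29.0 CPM) and at most 0.616 CPM of Xist.

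The cell labels were set against marker lists. The 6 genes of LSK cells and HSC (Kit, Ly6a, Slamf1, Procr, Mecom and Hlf) were detected in all 8 libraries and summed to 787 and 529 CPM in control and KO LSK against 419 and 272 CPM in control and KO MyePro. Kit alone was 491 and 393 CPM of the LSK sums and 395 and 242 CPM of the MyePro sums. In KO LSK 5 of 6 were lower, among them Hlf (194 to 45.2 CPM) and Mecom (41.5 to 10.4 CPM), and Ly6a was higher. In KO MyePro 4 of 6 were higher, and Kit and Hlf were lower. Of the 4, Procr (0.953 and 1.76 CPM in control and KO) and Mecom (1.76 and 1.94 CPM) had few counts in either MyePro library. The 5 myeloid progenitor genes (Mpo, Elane, Prtn3, Ctsg and Ms4a3) summed to 10844 and 6242 CPM in control and KO MyePro against 3123 and 2710 CPM in LSK. In LT-HSC the stem cell genes summed to 622 and 327 CPM in control and 579 and 575 CPM in KO, and the myeloid progenitor genes to 67.3 and 304 CPM in control and 72.8 and 245 CPM in KO, higher in transplant 2 of either genotype. These libraries are bulk RNA, in which fewer cells of a type and less RNA per cell cannot be told apart.

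The stretches before the start sites of 3 members are shown because these genes represent 3 of the patterns found below. Cxcr4 was higher in KO LSK and MyePro, Itga4 was lower and Itgb1 hardly differed. Itga6, Itgal and Selplg, whose KO differences lay mainly in MyePro, had no start-site entry and are not shown. Each is the 250 bases before the RefSeq start site (GRCm38.p6), 5′ to 3′ on the gene's own strand, with every CG dinucleotide in capitals, since CG-rich promoters are where the histone mark placed with DPY30 is usually found. No chromatin data were analysed here. Cxcr4 lies at chr1:128592300-128592549, minus strand, Itga4 at chr2:79255176-79255425, plus strand, and Itgb1 at chr8:128685404-128685653, plus strand.
Cxcr4: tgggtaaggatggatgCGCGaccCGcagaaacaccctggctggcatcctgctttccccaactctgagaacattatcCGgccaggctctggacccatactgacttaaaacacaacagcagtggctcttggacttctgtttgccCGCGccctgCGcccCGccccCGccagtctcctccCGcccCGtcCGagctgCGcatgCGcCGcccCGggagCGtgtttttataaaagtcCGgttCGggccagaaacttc
Itga4: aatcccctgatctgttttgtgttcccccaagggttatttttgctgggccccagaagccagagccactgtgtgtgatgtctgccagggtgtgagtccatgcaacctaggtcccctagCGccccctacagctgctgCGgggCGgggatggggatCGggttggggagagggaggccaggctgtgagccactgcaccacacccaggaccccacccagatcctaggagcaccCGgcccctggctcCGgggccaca
Itgb1: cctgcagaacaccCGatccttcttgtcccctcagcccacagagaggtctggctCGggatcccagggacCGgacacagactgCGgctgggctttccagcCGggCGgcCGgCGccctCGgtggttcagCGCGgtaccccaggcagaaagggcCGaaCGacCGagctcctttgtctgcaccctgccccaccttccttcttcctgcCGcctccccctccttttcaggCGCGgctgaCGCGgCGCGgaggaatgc
The Cxcr4 stretch holds 19 CG dinucleotides, a number reached by 19.7% of 32851 mouse promoter stretches of this length, and Itgb1 holds 21, reached by 16.3%. Itga4 holds 6, which is the median of all the stretches, so 50.4% hold as many. Of the other members with an entry, Itga5 holds 11, Cd44 holds 5 and Cd47 holds 30 or 31 at its 2 listed starts. The letters TATAAA, searched on both strands, occur in Cxcr4 near the 3′ end, where a match on either strand overlaps the other, and in 12.4% of all stretches. They are not in the windows of the other 5 members. The ETS-type letters CCGGAA occur once in Cd47 and in 12.0% of all stretches, and the GATA-type letters AGATAA once in Cd44 and in 9.99%. Entries were found for 6 of the 9 members, not for Itga6, Itgal and Selplg.

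Cxcr4 (ENSMUSG00000045382; GRCm38.p6, chromosome 1, 128588199 to 128592299), the CXCL12 receptor, was higher in KO than in control in both progenitor populations. It stood at 159.8 CPM in control LSK, 302 in KO LSK, 193 in control MyePro and 367 in KO MyePro, in the order control LSK, control MyePro, KO LSK, KO MyePro. The log2 ratio of KO to control was 0.92 in LSK (95% interval 0.83 to 1.01), a 1.89-fold difference, and 0.93 in MyePro (0.87 to 0.99), a 1.90-fold difference. Intervals in LSK and MyePro cover counting error only: with 1 library per group no difference there has a replicate check and no p-value is given. The difference between the 2 log2 ratios was 0.01 (interval -0.10 to 0.12), so the ratios did not differ beyond counting error. On CPM over gene entries without TMM, the LSK levels were 157 and 326 CPM, a log2 ratio of 1.05, which passes 2-fold.

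In LT-HSC, Cxcr4 stood at 16.1 and 23.9 CPM in control and at 20.04 and 28.4 CPM in KO. The KO library was the higher one within each transplant, but the groups overlapped. KO exceeded control by 0.28 ± 0.358 on the log2 scale (SE, 2 libraries a group), with an adjusted p of 0.999 (edgeR's quasi-likelihood test, Benjamini-Hochberg over 12844 genes), and the differences within transplants 1 and 2 were 0.32 and 0.25. Cxcr4 was the 1 member with the KO library above the control in all 4 pairs of LSK, MyePro and both transplants, as were 7.61% of 7636 genes measured in both sets. Leaving out 1 LT-HSC library at a time gave log2 fold changes from 0.00 (without KO LT-HSC 2) to 0.60 (without control LT-HSC 2).

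Itga4 (ENSMUSG00000027009; chromosome 2, 79255426 to 79333114), the alpha 4 chain of the VCAM-1 receptor, went the other way. Its levels were 219 CPM in control LSK, 143 in KO LSK, 248 in control MyePro and 149 in KO MyePro, so that both KO libraries lay below both controls. The log2 ratio of KO to control was -0.62 in LSK (interval -0.72 to -0.51; KO at 65.3% of control) and -0.73 in MyePro (-0.81 to -0.65; 60.3%). The LT-HSC controls stood at 154 and 169 CPM and the KO libraries at 135 and 139.9 CPM, without overlap of the groups. Its fitted log2 difference, KO minus control, was -0.23 ± 0.242 (SE; adjusted p = 0.999, edgeR), and within transplants 1 and 2 it was -0.19 and -0.27. Itga4 and Itga5 were the members in which KO lay below control in all 4 pairs, as did 13.0% of the genes measured in both sets.

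Itga5 (ENSMUSG00000000555; chromosome 15, 103344286 to 103366791), the alpha chain of the fibronectin receptor, stood at 64.3 and 58.5 CPM in control and KO LSK and at 81.1 and 64.9 CPM in control and KO MyePro. Its log2 ratio in LSK, -0.14, lay within counting error (interval -0.31 to 0.04), and that in MyePro was -0.32 (-0.45 to -0.20). In LT-HSC it stood at 41.9 and 43.1 CPM in control and at 26.3 and 41.9 CPM in KO. The low value is that of KO LT-HSC 1, and KO LT-HSC 2 lay next to the lower control. KO minus control was -0.32 ± 0.314 on the log2 scale (SE; adjusted p = 0.999, edgeR), with -0.67 in transplant 1 and -0.04 in transplant 2.

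Itga6 (ENSMUSG00000027111; chromosome 2, 71786886 to 71858427), the alpha 6 chain of laminin receptors, was the member with the largest difference, and that difference lay in MyePro. It stood at 156 CPM in control LSK, 184 in KO LSK, 73.9 in control MyePro and 175 in KO MyePro, so that 3 libraries were alike and control MyePro was low. The log2 ratio of KO to control was 1.24 in MyePro (interval 1.15 to 1.34), a 2.37-fold difference, and 0.23 in LSK (0.13 to 0.33). The log2 ratios differed by 1.01 (interval 0.87 to 1.15). A 2-fold difference between the LSK and MyePro ratios was reached by 9.37% of 10319 genes. In LT-HSC Itga6 stood at 87.3 and 76.9 CPM in control and at 82.3 and 111.8 CPM in KO, a fitted log2 difference of 0.24 ± 0.271 (SE; adjusted p = 0.999, edgeR), and the transplants differed in sign (-0.09 and 0.54).

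Marker lists of other cell types also differed between KO and control in LSK and MyePro. The 7 megakaryocyte genes (Pf4, Ppbp, Gp1bb, Gp9, Gp6, Itga2b and Treml1) summed to 147 CPM in control MyePro, where Gp6 had no counts, and to 1412 CPM in KO MyePro, where all 7 were detected. All 7 were higher in KO MyePro. In LSK they summed to 499 and 609 CPM in control and KO, with 5 of 7 higher and Gp1bb and Treml1 lower. The 8 mature neutrophil genes summed to 26.2 and 618 CPM in control and KO MyePro and to 11.3 and 172 CPM in control and KO LSK. Nearly all of this was S100a8 (9.18 to 228 CPM in MyePro), S100a9 (0.702 to 64.3) and Lcn2 (13.4 to 315), while the granule gene Camp had no counts in either MyePro library and Ltf, Mmp8 and Retnlg stood at 0.616, 3.17 and 0.0880 CPM in KO MyePro. In control LSK S100a8, S100a9 and Retnlg were at 0, and in KO LSK Ltf was at 0. The 9 macrophage genes, all detected, summed to 140.4 and 452 CPM in control and KO MyePro (8 of 9 higher, Csf1r lower) and to 126 and 268 CPM in LSK (9 of 9 higher). The 8 T and NK cell genes summed to 207 and 646 CPM in MyePro and to 203 and 585 CPM in LSK, of which Nkg7 alone was 197 and 516 CPM in MyePro and 197 and 451 CPM in LSK. In KO 7 of 8 were higher in MyePro (Cd3g lower) and 6 of 8 in LSK (Cd3d and Ncr1 lower). Gzmb went from 9.23 to 105 CPM in MyePro and from 4.62 to 104 CPM in LSK. Klrb1c went from 0.151 to 17.8 CPM and from 0.883 to 27.8 CPM. The T cell genes Cd3e, Cd3d and Cd3g had 0 to 3 counts in each of these libraries. The 8 erythroid genes summed to 3160 and 346 CPM in control and KO MyePro and to 714 and 49.9 CPM in LSK, led by Car1 (2218 and 228 CPM in MyePro). In both populations 6 of 8 were lower in KO and the globin genes Hbb-bt and Hba-a1 were higher (1.61 to 15.3 CPM and 3.46 to 12.4 CPM in MyePro). The part of these cell types in the KO differences of any member was not tested.

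Itgb1 (ENSMUSG00000025809; chromosome 8, 128685654 to 128733579), the beta 1 chain that pairs with alpha 4, alpha 5 and alpha 6, hardly differed among the libraries. It stood at 398 CPM in control LSK, 427 in KO LSK, 392 in control MyePro and 399 in KO MyePro. The log2 ratio of KO to control was 0.10 in LSK (interval 0.03 to 0.17) and 0.03 in MyePro (-0.03 to 0.08). In LT-HSC the levels were 66.5 and 63.2 CPM in control and 57.8 and 72.6 CPM in KO, with the KO libraries on either side of both controls. The log2 fold change was 0.01 ± 0.258 (SE; adjusted p = 0.999, edgeR). The alpha chains thus had ratios from -0.73 to 1.24 in MyePro beside a beta chain at 0.03.

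Itgal (ENSMUSG00000030830; chromosome 7, 127296139 to 127335137), the alpha chain of LFA-1, was lowest in control MyePro. It stood at 144 CPM in control LSK, 135 in KO LSK, 117 in control MyePro and 152 in KO MyePro. Its log2 ratio was -0.09 in LSK (interval -0.20 to 0.03) and 0.39 in MyePro (0.30 to 0.48), a difference between the ratios of 0.47 (0.33 to 0.62). Itgb2, its beta chain, picked with its values known, was at 72.2 and 97.2 CPM in control and KO LSK and at 43.1 and 138 CPM in control and KO MyePro. In LT-HSC Itgal stood at 12.1 and 23.5 CPM in control and at 7.20 and 18.3 CPM in KO. Here the transplants separated the libraries and the genotypes overlapped. KO minus control was -0.48 ± 0.551 on the log2 scale (SE; adjusted p = 0.999, edgeR), lower in both transplants (-0.75 and -0.37).

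**Figure D1:**
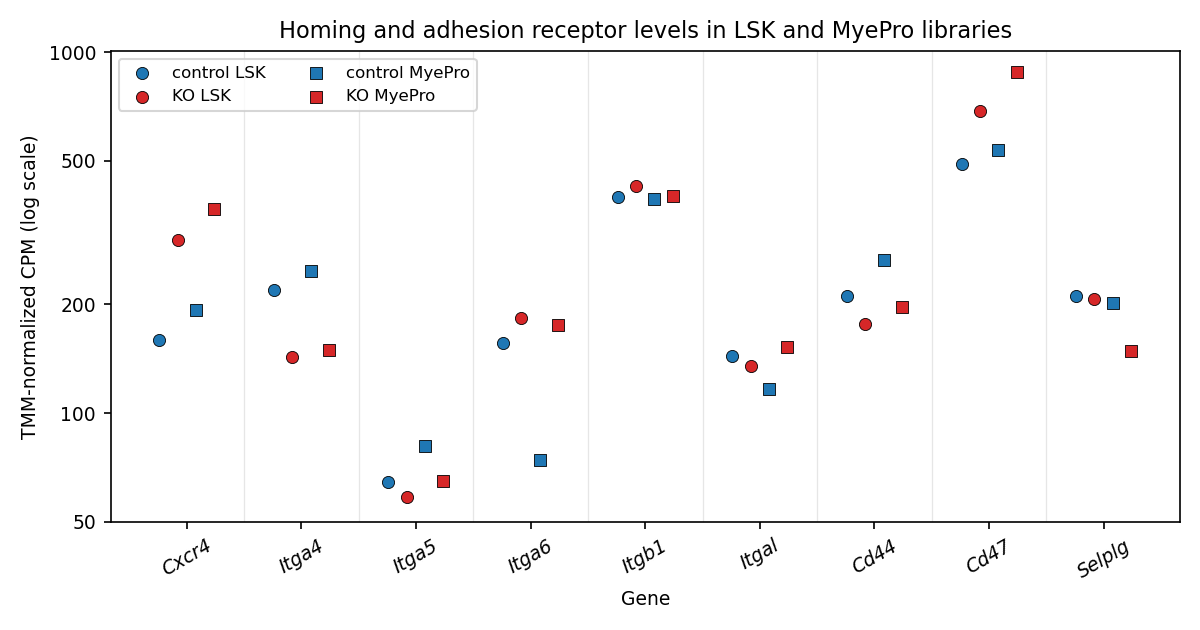
TMM-normalized CPM (vertical axis, log scale) of the 9 genes (horizontal axis) in the 4 LSK (circles) and MyePro (squares) libraries, blue for control and red for KO; each point is 1 library. Both KO points of Cxcr4 (302 and 367 CPM) lie above both controls, both KO points of Itga4 (143 and 149 CPM) lie below, and the control MyePro point of Itga6 (73.9 CPM) lies apart from the other 3; heights should not be compared between genes, which differ in transcript length.

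Cd44 (ENSMUSG00000005087; chromosome 2, 102811141 to 102901669) had lower levels in KO than in control in LSK and MyePro. It stood at 212 CPM in control LSK, 177 in KO LSK, 266 in control MyePro and 197 in KO MyePro. The log2 ratio was -0.26 in LSK (interval -0.36 to -0.16) and -0.44 in MyePro (-0.51 to -0.37). The 2 KO libraries lay below both controls, and neither ratio reached 1.5-fold. In LT-HSC the levels were 74.1 and 95.5 CPM in control and 58.9 and 119.5 CPM in KO. The KO libraries were the lowest and the highest of the 4. KO minus control was 0.07 ± 0.373 on the log2 scale (SE; adjusted p = 0.999, edgeR), -0.33 in transplant 1 and 0.32 in transplant 2.

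Cd47 (ENSMUSG00000055447; chromosome 16, 49851328 to 49912503), the SIRP-alpha ligand, was higher in KO in both progenitor populations. It stood at 489 CPM in control LSK, 688 in KO LSK, 535 in control MyePro and 882 in KO MyePro, and both KO libraries lay above both controls. The log2 ratio was 0.49 in LSK (interval 0.44 to 0.55; 1.41-fold) and 0.72 in MyePro (0.68 to 0.76; 1.65-fold). Sirpa, which encodes its receptor, had log2 ratios of 0.67 in LSK and 1.33 in MyePro (chosen after its values were seen). In LT-HSC Cd47 stood at 359.7 and 485 CPM in control and at 281 and 455 CPM in KO. The KO library was the lower one in both transplants there (-0.36 and -0.09), opposite to LSK and MyePro, and the fitted log2 difference was -0.20 ± 0.331 (SE; adjusted p = 0.999, edgeR). The difference between LT-HSC and the other populations was not tested, since the sets were normalized apart.

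Selplg (ENSMUSG00000048163; chromosome 5, 113817798 to 113832528), which encodes PSGL-1, differed in MyePro more than in LSK. It stood at 211 CPM in control LSK, 207 in KO LSK, 202 in control MyePro and 148 in KO MyePro, so that KO MyePro was the low one of the 4 libraries. The log2 ratio was -0.03 in LSK (interval -0.12 to 0.07) and -0.45 in MyePro (-0.53 to -0.37), a difference between the ratios of -0.42 (-0.54 to -0.30). In LT-HSC it stood at 21.1 and 13.4 CPM in control and at 18.7 and 19.7 CPM in KO, both KO libraries between the 2 controls. The log2 fold change was 0.15 ± 0.362 (SE; adjusted p = 0.999, edgeR).

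**Figure D2:**
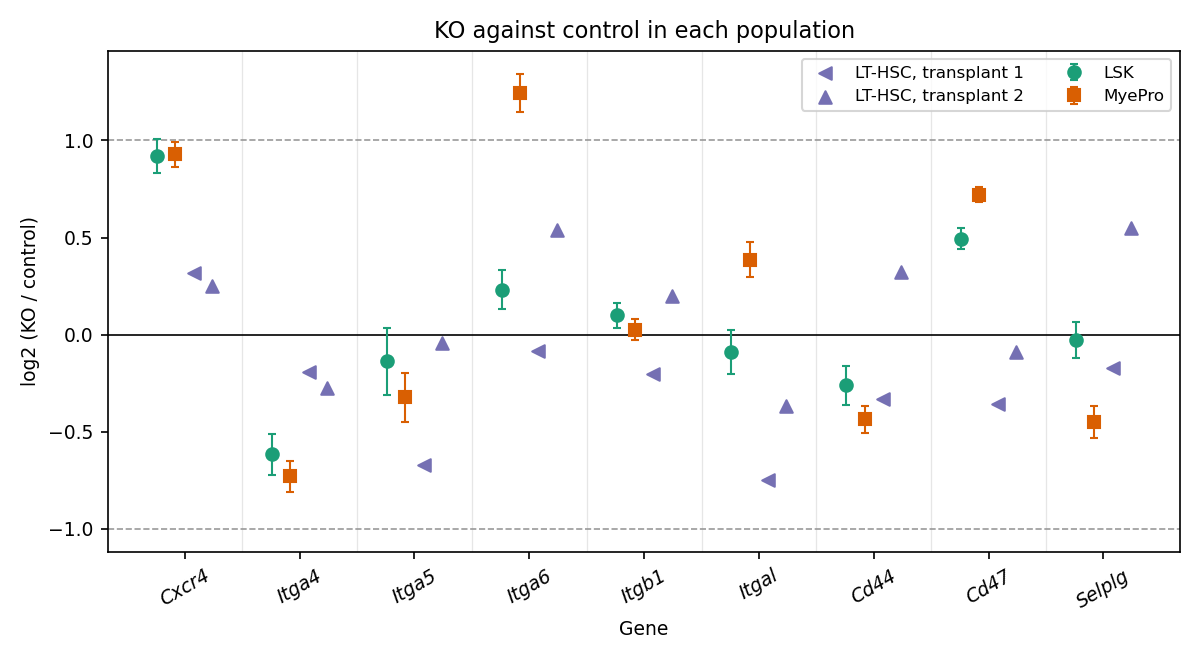
Log2 ratio of KO to control (vertical axis) for each gene (horizontal axis) in LSK (green circles), MyePro (orange squares) and each LT-HSC transplant (purple triangles); bars on the LSK and MyePro points are 95% intervals for counting error only, the solid line is no difference and the dashed lines are 2-fold. Cxcr4 is above 0 and Itga4 below 0 in all 4 pairs, and only the MyePro point of Itga6 (1.24) passes 2-fold.

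Over the 9 members, 0 of 9 passed 2-fold in LSK and 1 of 9, Itga6, in MyePro. Of all genes averaging 5 CPM or more, 10.4% passed 2-fold in either direction in LSK and 19.3% in MyePro, so the members' counts were not above the background. The members' median log2 ratio was -0.03 in LSK and 0.03 in MyePro, against -0.04 and -0.08 over all genes. Ratios below 0 were found for 5 of 9 members in LSK (53.6% of all genes) and 4 of 9 in MyePro (55.3%). At 1.5-fold, 2 of 9 members passed in LSK (Cxcr4 higher, Itga4 lower; background 23.8%) and 4 of 9 in MyePro (Cxcr4, Itga6 and Cd47 higher, Itga4 lower; background 40.1%). Cxcr4 was past 1.5-fold upward in both populations, as were 9.11% of 10319 genes, and Itga4 downward in both, as were 8.79%. Library totals without TMM moved the median of all genes in LSK to 0.09, and there Itgal and Selplg had ratios of 0.05 and 0.11 in place of values below 0. On that scale Itga4 in LSK, at -0.48, was within 1.5-fold, so that its call in both populations was lost, and Cd47 in LSK, at 0.63, was past it.

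In LT-HSC 0 of 9 members passed an adjusted p under 0.05 by the edgeR quasi-likelihood test, against 0.0156% of all genes tested. At an unadjusted p under 0.05 the count was 0 of 9, against 2.29% (1.01% higher, 1.28% lower). With transplant as a block it was 0 of 9 by either p, against 0.0311% of all genes by adjusted and 3.94% by unadjusted p, and it was 0 of 9 with DESeq2 and with limma-voom. The members' median log2 fold change was 0.01, as against 0.00 over all genes, and 4 of 9 members lay below 0, as did 49.7% of all genes. KO was below control within both transplants for 4 of 9 members, Itga4, Itga5, Itgal and Cd47 (24.4% of all genes), and above it in both for 1 of 9, Cxcr4 (24.9%). The groups of 2 libraries did not overlap for 2 of 9 members, Itga4 and Itga5, both lower in KO, and for 13.9% of all genes in that direction, 13.8% in the other and 27.7% in either. For Itga5 the groups all but touched, at 41.8888 CPM in KO LT-HSC 2 and 41.8965 CPM in control LT-HSC 1. For Cxcr4, Itgal, Cd44 and Cd47 both transplant 2 libraries lay above both transplant 1 libraries, as for 21.8% of all genes, and 6 of 9 members were higher in transplant 2 within either genotype (29.0%). From transplant 1 to 2 the summed mature neutrophil genes went from 67.7 to 328 CPM in control (8 of 8 higher) and from 153 to 229.8 CPM in KO (5 of 8 higher). The T and NK cell genes went from 13.4 to 54.2 CPM and from 12.3 to 45.5 CPM, most of it Nkg7. Of these, 6 of 8 were higher in control (Gzmb lower) and 5 of 8 in KO (Cd3d and Ncr1 lower). The myeloid progenitor sums given above were also higher, with 4 of 5 genes higher in control (Prtn3 lower) and 5 of 5 in KO. The part of these cell types in the transplant difference was not tested. Library totals without TMM moved the median of all genes in LT-HSC to -0.35 and that of the members to -0.28. On that scale 8 of 9 members had a fold change below 0, among them Itga6, Itgb1, Cd44 and Selplg, which are above 0 with TMM. Mitochondrial ribosomal RNA took 62.4% of gene counts in KO LT-HSC 1 against 45.1% to 49.6% in the others.

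**Figure D3:**
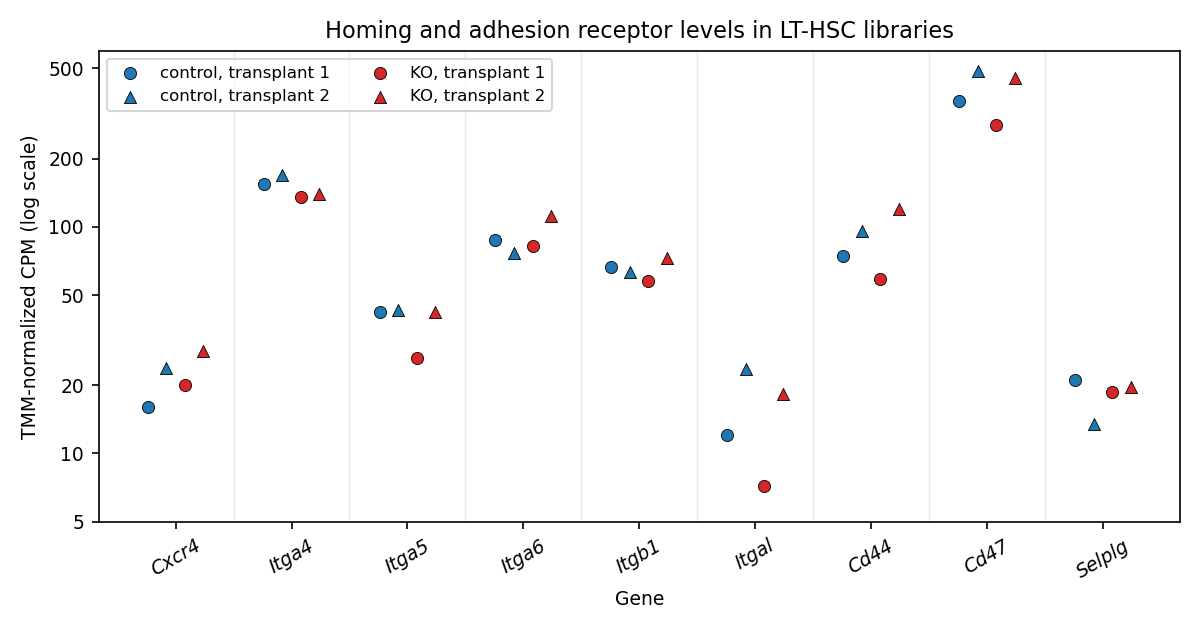
TMM-normalized CPM (vertical axis, log scale) of the 9 genes (horizontal axis) in the 4 LT-HSC libraries, blue for control and red for KO, circles for transplant 1 and triangles for transplant 2; each point is 1 library. The KO points of Cd44 (58.9 and 119.5 CPM) enclose both controls, and for Itgal (7.20 to 23.5 CPM) the transplants lie further apart than the genotypes.

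The comparison of MyePro with LSK within each genotype asked how the receptors differ between the less and the more differentiated population. It uses the same 4 libraries as the KO comparisons above, so its values are not independent of them. In control cells Itga6 was lower in MyePro, with a log2 ratio of MyePro to LSK of -1.08 (interval -1.18 to -0.99), and was the 1 of 9 members past 2-fold (background 10.2% of 10059 genes, 7.21% in that direction). Itgal had a control ratio of -0.30 (-0.39 to -0.22). Itga5, Cd44, Cxcr4, Itga4 and Cd47 were higher in control MyePro, with ratios of 0.33, 0.33, 0.27, 0.18 and 0.13, and their counting intervals lay above 0. Itgb1 and Selplg had ratios of -0.02 and -0.06, within counting error. In all, 4 of 9 members lay below 0 (44.9% of all genes), 0 of 9 were 2-fold higher in MyePro (3.01%), and Itga6 was also the 1 member past 1.5-fold (22.7%).

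In KO cells 0 of 9 members passed 2-fold between MyePro and LSK (background 4.68%, 3.15% higher and 1.53% lower), 0 of 9 passed 1.5-fold (13.9%), and 3 of 9 lay below 0 (50.1%). Itga6 had a ratio of -0.07 (interval -0.17 to 0.04). Cd47 had the highest ratio, 0.36 (0.31 to 0.41), followed by Cxcr4 at 0.28 (0.20 to 0.36). Selplg had the lowest, -0.48 (-0.59 to -0.38), and Itgal was at 0.17 (0.05 to 0.29). Library totals without TMM moved the median of all genes in this comparison from 0.00 to -0.13, and Itga4 then had a ratio of -0.07 in place of 0.06, while Selplg, at -0.61, was the 1 member past 1.5-fold.

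**Figure D4:**
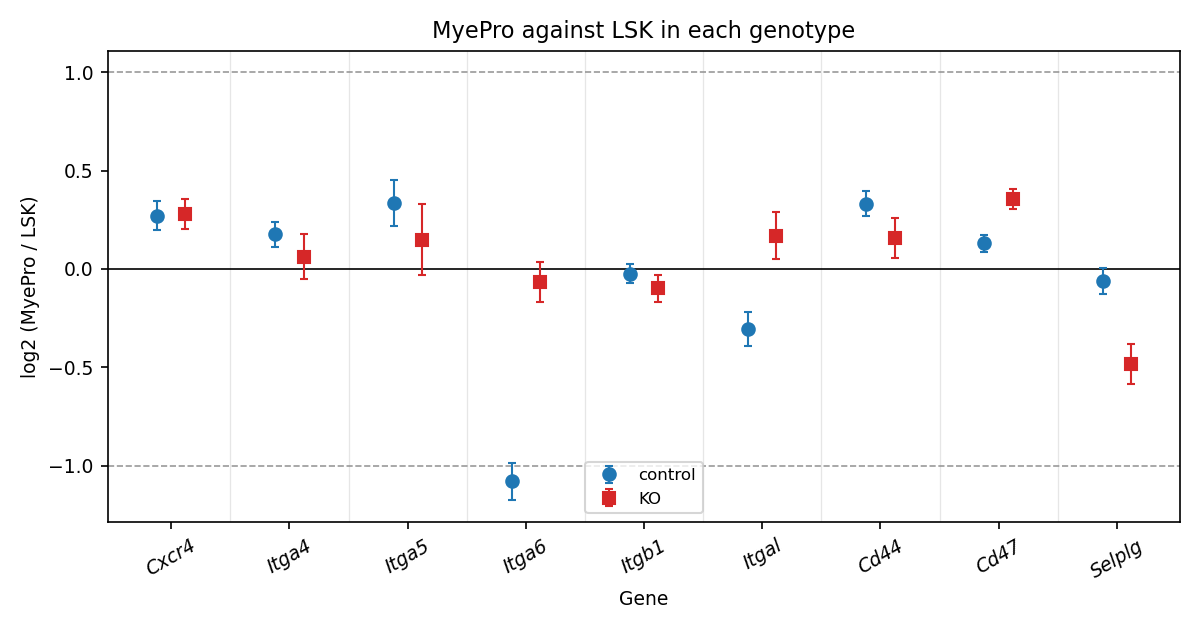
Log2 ratio of MyePro to LSK (vertical axis) for each gene (horizontal axis) in control (blue circles) and KO (red squares) cells; bars are 95% intervals for counting error only, the solid line is no difference and the dashed lines are 2-fold. Itga6 is at -1.08 in control and -0.07 in KO, Itgal lies on opposite sides of 0, and Cxcr4 is nearly the same in both genotypes (0.27 and 0.28).

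Other genes of the same system were read from lists of related genes. Of 21 other integrin subunits, 9 were measured in LSK and 8 in MyePro, where measured means a mean of at least 5 CPM, which a subunit can reach through its KO library alone. In LSK 5 were at least 2-fold higher in KO and 0 lower (background 4.98% and 5.39%), and in MyePro 8 were higher and 0 lower (background 11.3% and 7.99%). Itgb3, the beta 3 chain of platelets and stem cells, stood at 55.0 and 219.7 CPM in control and KO LSK and at 18.6 and 362 CPM in MyePro. Itga2b, its platelet partner, stood at 85.3 and 551 CPM in control and KO MyePro. Itgam, the alpha chain of the phagocyte integrin Mac-1, stood at 23.4 and 119.8 CPM in LSK and at 15.7 and 111.6 CPM in MyePro. Itgax, a chain of dendritic cells and macrophages, had log2 ratios of 1.41 in LSK and 3.46 in MyePro. In MyePro it stood at 3.41 and 39.2 CPM in control and KO, and counted as measured through its KO library alone. Itgb7, a second partner of alpha 4, had a log2 ratio of 1.09 in LSK, where Itga4 itself had -0.62. The summed markers of megakaryocytes, neutrophils and macrophages given above, which include Itga2b itself, were higher in the same KO libraries, though not every gene of each list was, and their part in these values was not tested.

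Among 15 other homing receptors, 9 were measured in both populations, 3 were at least 2-fold higher in KO LSK and 2 in KO MyePro, and 0 were lower, against 4.98% of all genes higher and 5.39% lower in LSK and 11.3% and 7.99% in MyePro. Cxcr2, the neutrophil chemokine receptor that opposes Cxcr4 in marrow release, stood at 22.8 and 133.7 CPM in control and KO LSK and at 13.5 and 151 CPM in MyePro. Ccr1 stood at 5.10 and 45.1 CPM in LSK and at 5.47 and 60.6 CPM in MyePro. Ccr2, a monocyte chemokine receptor, had a log2 ratio of 1.10 in LSK. Among 21 other adhesion molecules, 1 was higher and 2 lower of 15 measured in KO LSK, and 7 higher and 1 lower of 14 in KO MyePro (all genes: 4.98% and 5.39%, and 11.3% and 7.99%). Cd24a, a sialoglycoprotein of erythroid and lymphoid precursors, stood at 437 and 79.4 CPM in LSK and at 796 and 107 CPM in MyePro. Of the tetraspanin genes, Cd9 had a log2 ratio of 2.62 in MyePro, and Cd151 stood at 24.9 and 70.8 CPM in control and KO MyePro with a ratio of 1.02 in LSK. Esam, an endothelial and stem cell adhesion gene, stood at 20.5 CPM in control LSK, 0.602 in control MyePro and 19.98 in KO MyePro. It counted as measured in the MyePro comparison through its KO library alone. Podxl, a CD34 family sialomucin, had a log2 ratio of -1.46 in LSK.

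Of 16 genes of CXCR4 signalling and migration, all measured, 0 passed 2-fold in KO LSK and 1 in KO MyePro, Arrb2, an arrestin that takes part in switching off chemokine receptors (45.1 and 113 CPM), against 10.4% and 19.3% of all genes. Their median log2 ratios were 0.13 and 0.26, against -0.04 and -0.08 over all genes, with 5 of 16 below 0 in either population (53.6% and 55.3% of all genes), and Gnai2, the G protein subunit used by CXCR4, had 0.55 in LSK. Of 16 measured genes of integrin activation and linkage to actin, 0 were higher and 1 lower in KO LSK (Vcl, -1.02), and 3 were higher and 3 lower in KO MyePro, beside 4.98% and 5.39% of all genes in LSK and 11.3% and 7.99% in MyePro. Rap1b, a GTPase that activates integrins, stood at 279 and 1057 CPM in MyePro, Zyx at 128 and 471 CPM, Apbb1ip, which links RAP1 to talin, at 209 and 97.1 CPM, and Parvg at 317 and 148 CPM. Of genes that build selectin ligands, 0 were higher and 2 lower of 9 in KO LSK, and 2 higher and 3 lower of 10 in KO MyePro, where the all-gene shares were again 4.98% and 5.39% in LSK and 11.3% and 7.99% in MyePro. Gcnt1, which branches the sugars of PSGL-1, had a log2 ratio of 1.22 in MyePro, and C1galt1, of the same list, had -1.22.

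Genes of the niche side, a list of ligands and counter-receptors, included several that blood cells also express. In KO LSK 3 were higher and 1 lower of 8 measured, and in KO MyePro 7 were higher and 0 lower of 9 (all genes: 4.98% higher and 5.39% lower in LSK, 11.3% and 7.99% in MyePro). Spp1, which encodes osteopontin, a ligand of CD44 and of several integrins, stood at 334 and 854 CPM in control and KO LSK and at 109.9 and 1392 CPM in MyePro. Fn1 (fibronectin) and Lamc1 (a laminin chain) had log2 ratios of 1.35 and 1.15 in LSK. In MyePro Fn1 had a ratio of 2.30 and Lamc1 stood at 11.3 and 39.7 CPM in control and KO. Selp, which encodes P-selectin, had -1.38 in LSK. The 8 endothelial and stromal marker genes summed to 64.1 and 157 CPM in control and KO LSK and to 29.6 and 115 CPM in control and KO MyePro, with Lepr at 0 in control LSK and KO MyePro. Pdgfrb alone was 45.9 and 128 CPM of the LSK sums and 23.3 and 56.2 CPM of the MyePro sums, and 6 of 8 genes were higher and 2 lower in each KO library, with Emcn lower in both. Their part in the niche-side values was not tested.

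In LT-HSC 0 genes of any of these lists passed the edgeR threshold, in either direction. By unadjusted p (threshold 0.05) 0 were higher in KO, and the lower ones were 1 of 12 other integrin subunits, 1 of 11 homing receptors and 2 of 10 selectin ligand genes, against 1.28% of all genes. With transplant as a block, 0 passed the adjusted threshold and the unadjusted calls were others in part (names chosen after their values were seen). Fn1 was higher and Sele lower among 12 niche-side genes. Dock2 was lower among 16 CXCR4 signalling genes, Ccr7 among 11 homing receptors and Tpst2 among 10 selectin ligand genes. Itga9 and Fut7 no longer passed. The calls were 0 of 12 other integrin subunits, 0 of 20 adhesion molecules and 0 of 17 integrin activation genes. Over all genes 3.94% passed in either direction. Itgb3 had a control mean of 84.7 ± 66.1 CPM and a KO mean of 74.0 ± 78.0 CPM (SD, n = 2), and Itgam had 57.9 ± 66.9 and 38.5 ± 17.0 CPM. The difference between the means was smaller than the SD of both groups for Itgb3 and than the control SD for Itgam. Tln1, which links integrins to actin, stood at 244 ± 14.1 and 199 ± 0.105 CPM, and Fn1 at 29.3 ± 14.5 and 51.7 ± 9.22 CPM, with log2 fold changes of -0.29 and 0.82 (adjusted p = 0.999 for both, edgeR).

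The genes most like each member across the 8 libraries were found by the Pearson correlation of log2 CPM, with each set centred on its own mean, among the 5612 genes averaging 10 CPM or more in both sets. Genes with Gm, Rik, Rps or Rpl symbols were left out. For Cxcr4 they were Sgip1 (r = 0.990), Trappc1 (0.985) and Prdx5 (0.969). For the others they were Mef2d (Itga4, 0.994), Vps35 (Itga5, 0.985), Sema4b (Itga6, 0.991), Bcl7c (Itgb1, 0.973), Baz2a (Itgal, 0.980), Taok3 (Cd44, 0.971), Dio2 (Cd47, 0.998) and Phrf1 (Selplg, 0.979). Each gene was picked for its r among 5612 genes over only 8 libraries, so high values can arise through that choice alone, and none was tested. The libraries differ in depth, and the sets were normalized apart.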

How the data were processed

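RNA was measured in 8 libraries of sorted marrow cells; the chromatin samples of the series were not used here. The authors deposited whole-number counts per gene, by gene symbol for LSK and MyePro and by Ensembl ID for LT-HSC. Per the submitters' processing notes, the tools included CASAVA 1.8.4, TopHat2, Picard 1.126 and HTSeq 0.6.0 with build mm10, and the RNA was poly(A)-selected per the labels' protocols, with LT-HSC RNA amplified. Use of strand in counting is not given in the sources used here.

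Library sizes were summed over gene entries only. Left out were the 92 ERCC spike-ins and the summary lines, among them reads outside genes (2.40% to 26.0% of all counts in a file) and reads without a unique alignment (23.9% to 37.9%). Symbols were matched to 37607 of the Ensembl IDs (96.0%). LT-HSC counts were tested with edgeR 4.0.16 (quasi-likelihood test, TMM, two-sided, Benjamini-Hochberg adjustment, threshold 0.05) over genes with at least 1 CPM in 2 libraries, in R 4.3.3. Replicates are pools from separate transplants, and the labels' transplant numbers pair the samples across genotypes (correlation of same-numbered deviations 0.292). LSK and MyePro have 1 library per genotype: log2 ratios of TMM-normalized CPM used a prior count of 2, exact binomial 95% intervals and a 2-fold threshold among genes averaging 5 CPM or more. Alternatives were the transplant block, other scalings, filters, prior counts and fold thresholds, DESeq2 1.42.0, limma 3.58.1 (voom), and leaving out each LT-HSC library.

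Members and lists were chosen with earlier results of these data known. From each list up to 4 genes past the threshold and averaging 10 CPM or more were named by size of change, or otherwise the 2 most abundant. Start-site sequences and positions are from RefSeq (GRCm38.p6).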

Additional observations from a re-analysis of the deposited data

Results flagged for a closer look

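Itgal had a log2 ratio of MyePro to LSK of -0.30 in control cells and 0.17 in KO cells, on opposite sides of 0. The ratios differed by 0.47 (95% interval 0.33 to 0.62, counting error only). With 1 library per group the difference was not tested against the spread between samples, and on library totals without TMM the KO ratio was 0.04.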

How the results depend on the processing

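In LT-HSC 0 of 9 members passed the adjusted or unadjusted threshold under any of the 13 alternatives. The count over all genes was 2 with edgeR and with RLE size factors, 4 with transplant as a replicate block, 4 with library totals, 4 with totals without mitochondrial genes, 4 with no filter, 4 at 5 CPM, 1 with ERCC totals, 1 with limma-voom and 14 with DESeq2. Leaving out 1 library gave 0 to 5 genes: 0 without either control, 3 if KO LT-HSC 1 and 5 if KO LT-HSC 2 was omitted. Signs turned for log2 fold changes under library totals in Itga6 (-0.031), Itgb1 (-0.28), Cd44 (-0.10) and Selplg (-0.19), under totals without mitochondrial genes in Itgb1 (-0.060), under ERCC totals in Cd47 (0.019), and with the transplant block in Itgb1 (-0.0018) and Cd44 (-0.0022). The block changed no other sign or call of a member. Leaving out 1 library moved Itgb1 from -0.17 to 0.16, Itgal from -1.31 to 0.086, Cd44 from -0.53 to 0.50, Cd47 from -0.59 to 0.11 and Selplg from -0.12 to 0.53; a lone library was assumed to vary like the other group. With library totals the members past 1.5-fold in LSK were Cxcr4 and Cd47 in place of Cxcr4 and Itga4. Members past 2-fold in LSK numbered 1 with library totals (Cxcr4) and 2 at 1.5-fold, and in MyePro 4 at 1.5-fold. At a mean of at least 1 CPM the genes past 2-fold numbered 2076 in LSK, 3278 in MyePro, 1825 between control populations and 1327 between KO populations. The causes were not tested. KO LSK, with 6130320 gene counts, has the widest counting intervals.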
